A study of Homo sapiens with 6 samples.

Results

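The voltage-gated sodium, calcium and HCN channel genes were described across the differentiation of H9, a human embryonic stem cell line, into cells that the submitters label arcuate neurons. The set was chosen by name: every protein-coding entry whose symbol is a sodium channel alpha (SCN followed by a number and A) or beta subunit, a CACNA, CACNB or CACNG gene, an HCN gene, or the sodium leak channel NALCN. This gave 45 genes among the 61853 entries of the deposited table. RNA was taken on day 0, from H9 cells grown on Matrigel, and on day 30, with 3 libraries from each day. The day 30 cells had passed from KSR into N2 medium with SHH, purmorphamine, SB431542 and LDN-193189, then received B-27 and DAPT, were replated with a ROCK inhibitor, and were kept to the end with B-27 and BDNF. All 6 libraries are total RNA depleted of ribosomal RNA, and all come from this 1 cell line without a genetic change named in the labels. The study's stated interest is the expression of factors that process ribosomal RNA precursors, and the channel genes were not its stated subject. Nothing in the labels says that the 3 libraries of a day came from separate cultures, so the p-values below measure the spread between these libraries, which may be technical.

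Sodium channel alpha subunits each form a whole channel in a single chain, with 4 repeated domains around a pore. In most of them the pore opens on depolarization and is shut within milliseconds by a loop between the domains III and IV. Beta subunits are single-pass partners that tune gating and adhesion. Calcium channels have the same layout. The high-voltage types need strong depolarization and assemble with an alpha2delta and a beta subunit, which carry the pore to the membrane, while the low-voltage (T) types open near rest and can work alone. The CACNG proteins are named for a calcium channel gamma subunit of skeletal muscle, but several of them are the TARPs, which bind AMPA-type glutamate receptors. HCN channels open on hyperpolarization and pass a pacemaker current, and NALCN passes a steady sodium leak that sets the resting potential. In arcuate neurons, which regulate feeding, such currents shape pacemaking and the release of peptides.

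The sodium alpha genes share stretches of sequence, which matters for reads that fit more than 1 of them. The share of 100-base windows that another channel gene also holds was 2.01% for SCN3A, 1.44% for SCN2A, 1.20% for SCN9A and 0.901% for SCN1A, and 0 for the other sodium alpha genes. How reads that fit several genes were counted remains not given in the sources used here.

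Levels are given in CPM, the usual depth-scaled read count, in which a gene's count is divided by its library's total and TMM factor. Where genes are compared with each other, the CPM are divided by the kilobases of merged exon (CPM per kb). Library totals ran from 5013643 to 12924842 counts, so that 1 read stood for 0.0755 to 0.189 CPM, and across genes the libraries of a day correlated at 0.970 or more. As a check on the labels, all 10 markers of pluripotent cells fell and all 12 pan-neuronal markers rose. Of the 10 arcuate and hypothalamic markers, 7 could be tested and rose, POMC among them from 1.02 to 1523 CPM, while AGRP (0.24 CPM), NPY (0.61 CPM) and RAX (0.03 CPM) were near 0 on day 30. The libraries are of whole cultures, in which fewer cells of a type and less RNA per cell cannot be told apart.

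Of the 45 channel genes, 37 had enough reads for the test, edgeR's quasi-likelihood test with Benjamini-Hochberg adjustment over the 18040 genes tested at 0.05. In that test 33 were higher on day 30 and 2 were lower, and 2 did not pass. Over all genes tested the shares were 39.8% for higher and 36.8% for lower. These shares are also the background to the counts of each gene and marker list, including lists given without them. A rise of at least 2-fold was called in 30 channel genes, against 29.7% of all genes tested, and one of at least 16-fold in 13, against 7.13%. In 33 of the 37 every day 30 library lay above every day 0 library in CPM, which held for 41.3% of all genes tested. The median log2 change was 3.10 (quartiles 1.59 and 4.77) over the 37 and 0.08 over all genes tested. These counts and medians are descriptions, not support: 10 of the 37 met the minimum of reads through day 30 alone and so had to differ, and 1, CACNG6, met it in neither day alone. Those 10 are SCN2B, SCN3A, SCN3B, SCN7A, SCN11A, CACNA1D, CACNA1E, CACNG2, HCN2 and NALCN, and their changes and p-values below are given as a description only. The other 26 met it in both days. The remaining 8 genes were too low to test (SCN10A, SCN4B, CACNA1F, CACNA1S, CACNA2D4, CACNG1, CACNG3 and HCN3) and are given by their reads.

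**Figure D1:**
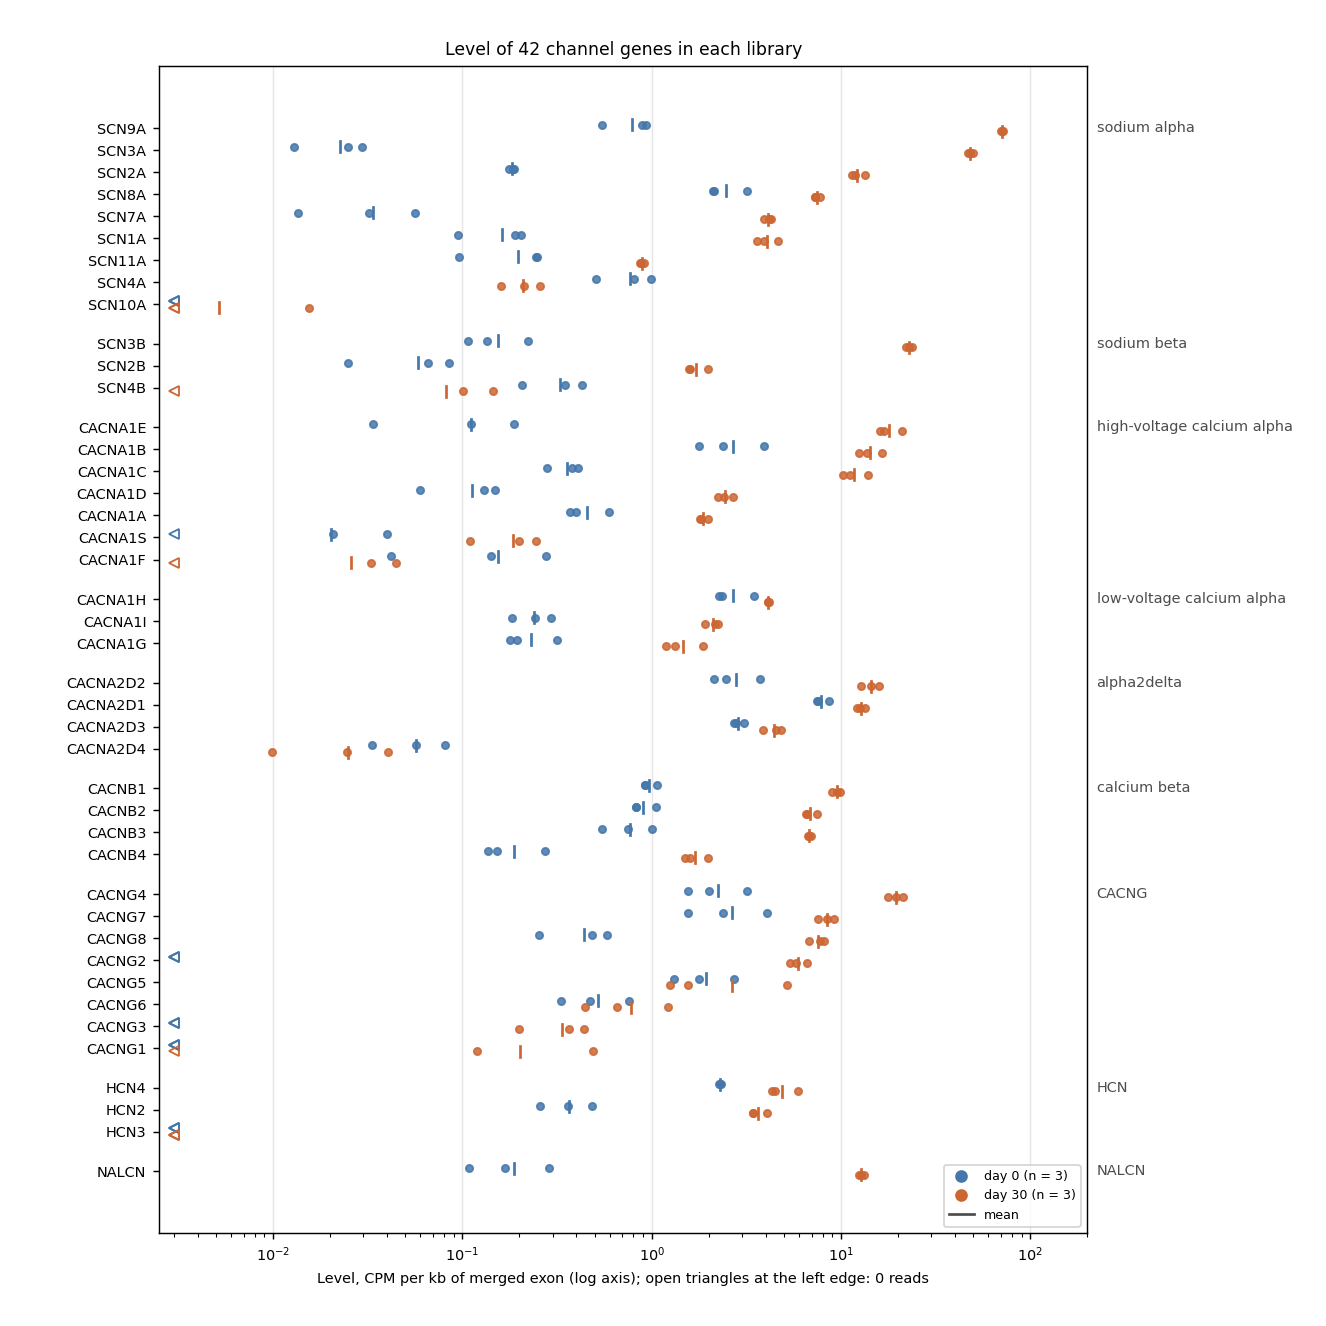
Level of 42 of the 45 channel genes in each library, in CPM per kb of merged exon on a log axis, grouped by family and ordered by the day 30 mean. Blue points are the 3 day 0 libraries, orange points the 3 day 30 libraries, short lines the means, and open triangles at the left edge libraries with 0 reads. SCN9A and SCN3A are the highest genes on day 30, at 70.9 and 48.2 CPM per kb, and CACNA2D1 is the highest on day 0, at 7.89.

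The sodium channel alpha genes went from a make-up led by SCN8A to one led by SCN9A and SCN3A. Of the 9 tested, 7 rose and 2 fell, and their summed level went from 5.67 ± 1.33 to 149 ± 2.69 CPM per kb (SD, n = 3). SCN3A, a sodium channel known mainly from fetal brain, held 1, 2 and 2 reads on day 0, that is 0.127, 0.291 and 0.246 CPM. On day 30 it stood at 489, 464 and 471 CPM. The days did not overlap, and the fitted log2 change was 10.99 ± 0.20 (SE; adjusted p = 3.83e-10, edgeR), a description since the gene was tested through day 30 alone. SCN9A, best known from pain-sensing neurons and also present in the hypothalamus, held 12.9, 12.2 and 7.51 CPM on day 0 and 988, 962 and 973 CPM on day 30, for a log2 change of 6.49 ± 0.20 (adjusted p = 1.37e-09, edgeR). It was the highest alpha gene of day 30 at 70.9 ± 0.93 CPM per kb, above SCN3A at 48.2 ± 1.30 in every library. The ratio of SCN9A to SCN3A per kb was 1.45, 1.49 and 1.48 in the 3 day 30 libraries.

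SCN8A, the main channel of nodes and axon initial segments in mature neurons, led on day 0. Its level was 47.8, 31.5 and 31.9 CPM on day 0 and 109, 116 and 109 CPM on day 30, with a log2 change of 1.59 ± 0.16 (adjusted p = 5.46e-06, edgeR). It thus rose while its share of the alpha level per kb went from 43.9% ± 5.23 to 5.03% ± 0.28 (SD, n = 3). SCN2A, the axonal channel of young excitatory neurons, stood at 4.46, 4.36 and 4.18 CPM on day 0 and at 279.9, 269.9 and 318 CPM on day 30. Its log2 change was 6.06 ± 0.14 (adjusted p = 5.05e-10, edgeR). Per kb of merged exon the ratio of SCN3A to SCN2A was 0.069 to 0.161 over the day 0 libraries. Over those of day 30 it was 3.56 to 4.20. The day 0 ratio rests on 5 reads of SCN3A, and the size of the ratio depends on the length used. Per kb of the longest coding transcript, a scale added after the data were seen, SCN3A held 52.0 and SCN2A 32.6 on day 30. SCN1A, the channel of inhibitory interneurons, rose by 4.64 ± 0.23 on the log2 scale to 68.5 CPM, and SCN7A by 6.87 ± 0.27 from 7 reads in all to 37.5 CPM. On day 30 SCN1A and SCN7A overlapped in level per kb of merged exon, at 4.04 ± 0.53 and 4.13 ± 0.19 CPM per kb. On that scale every other pair of neighbours in the day 30 order of alpha genes was separated in all libraries. Per kb of the longest coding transcript SCN1A stood at 8.03 ± 1.06 and SCN7A at 5.02 ± 0.23. SCN11A, a channel of peripheral sensory neurons, rose by 2.17 ± 0.33 to 6.81 CPM, and its 3 libraries of day 30 lay between 6.65 and 7.00 CPM.

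SCN4A, the alpha subunit of skeletal muscle, was among the alpha genes that fell. It held 8.16, 6.68 and 4.18 CPM on day 0 and 1.75, 2.11 and 1.32 CPM on day 30, with no overlap. It fell by 1.81 ± 0.33 on the log2 scale (adjusted p = 4.72e-04, edgeR). SCN10A, a sensory neuron channel, had 1 read in the 6 libraries.

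Markers of other cell types moved beside these genes. Of the 10 skeletal muscle markers 9 were in the table and 3 could be tested, of which 1 fell: ACTA1, skeletal alpha-actin, went from 142 to 2.24 CPM. Their summed level was 128 to 181 CPM on day 0 and 4.53 to 5.74 CPM on day 30, when MYOD1, MYOG, MYF5, MYH8 and TNNT3 were at 0, the first 3 on both days. Of the 11 sensory neuron and neural crest markers 6 were tested, 4 rising and 2 falling, and their sum went from between 18.0 and 25.9 to between 339 and 353 CPM. Most of that was NTRK2, a BDNF receptor that central neurons also carry, at 312 CPM, and FOXD3 fell to 0. RUNX1 rose from 1.57 to 14.7 CPM, TRPV1 from 6.53 to 12.0 CPM and PRPH from 0.60 to 4.27 CPM, SOX10 fell from 1.61 to 0.16 CPM, and POU4F1, not tested, stood at 0.23 and 1.02 CPM. The part of such cells in the values of SCN4A, SCN9A and SCN11A was not tested.

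Among sodium beta subunits the rise was nearly all SCN3B, an early neuronal partner of the alpha subunits. SCN3B held 1.27, 1.02 and 2.09 CPM on day 0 and 225, 208 and 216 CPM on day 30. The fitted log2 change was 7.17 ± 0.19 (adjusted p = 7.97e-10, edgeR), again for a gene that met the minimum of reads only on day 30. It made up 16.9% ± 6.27 of the beta level per kb on day 0 and 90.0% ± 1.03 on day 30 (SD, n = 3). SCN2B, which is disulphide-linked to alpha subunits, rose by 4.77 ± 0.36 from 8 reads in all to 9.97 CPM. SCN4B, the beta subunit of resurgent current in cerebellar and sensory neurons, was below the filter with 43 reads on day 0 and 11 on day 30. Its depth-scaled ratio of day 30 to day 0 was 0.207, with a 95% counting interval of 0.0962 to 0.408 that covers counting error only.

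**Figure D2:**
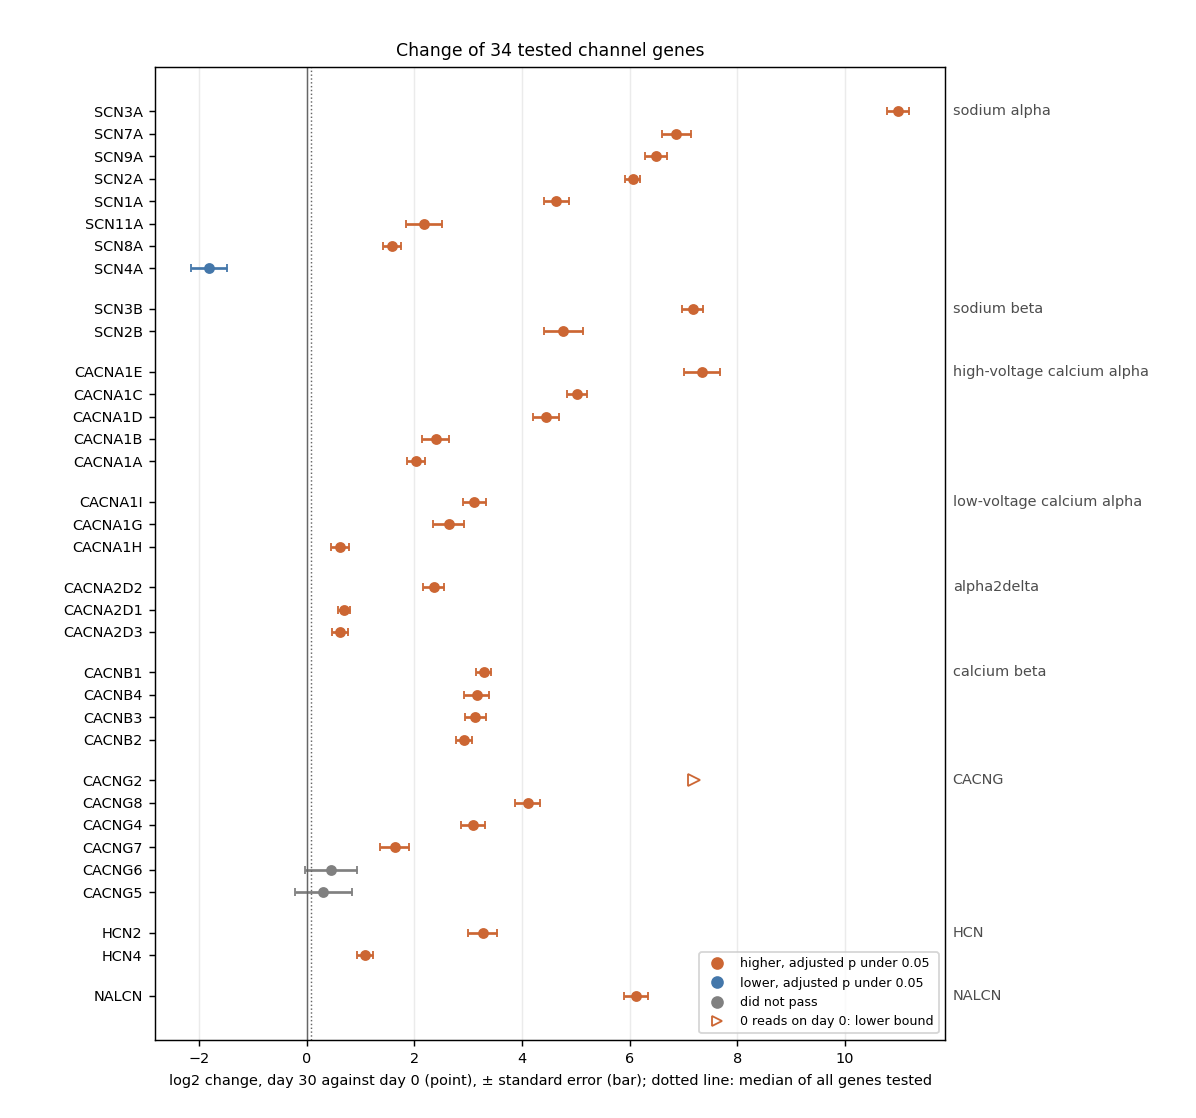
Points give the log2 change of 34 of the 37 tested channel genes, day 30 against day 0, from the edgeR fit, with bars of ± 1 standard error. Orange genes passed as higher, blue as lower, grey did not pass, the open triangle for CACNG2 is a lower bound at 7.20 since that gene had 0 reads on day 0, and the dotted line is the median of all genes tested at 0.08. SCN4A is the blue point.

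The sodium alpha genes lie in groups along the chromosomes, and the groups were not uniform. On chromosome 2, SCN3A, SCN2A, SCN1A, SCN9A and SCN7A share 1407 kb (chr2:165087522-166494326, GENCODE 29 on GRCh38) with 3 other protein-coding genes, and all 5 channels rose. They made up 21.0% ± 2.50 of the alpha level per kb on day 0 and 93.8% ± 0.34 on day 30 (SD, n = 3). Between them, CSRNP3, a nuclear protein, rose by 4.06 ± 0.14 on the log2 scale. GALNT3, a glycosylation enzyme of epithelia, fell by 4.72 ± 0.29, and TTC21B, a cilium protein, did not pass at -0.18 ± 0.13 (adjusted p = 0.219, edgeR). On chromosome 11, SCN4B and SCN2B are 9.06 kb apart on the same strand. SCN2B rose there, whereas SCN4B had fewer reads on day 30.

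**Figure D3:**
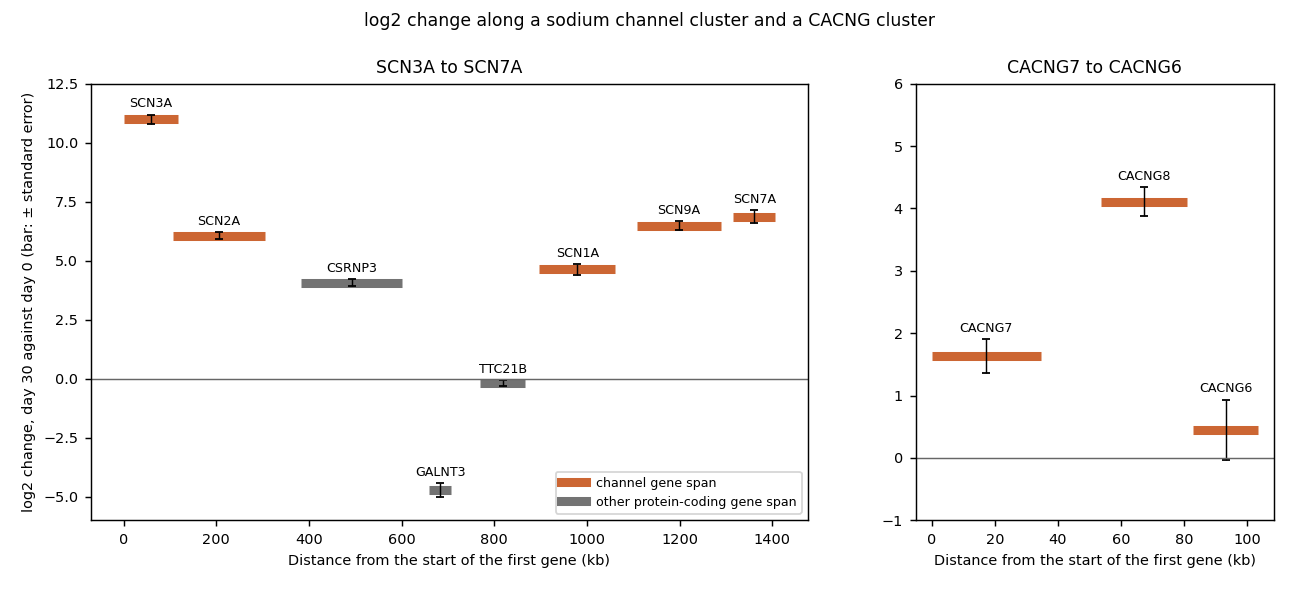
Horizontal bars show the span of each protein-coding gene in kb from the start of the first gene, at the height of its log2 change, day 30 against day 0, with vertical bars of ± 1 standard error. The left panel runs from SCN3A to SCN7A on chromosome 2 and the right panel from CACNG7 to CACNG6 on chromosome 19, and channel genes are orange. The 5 sodium channels lie between 4.64 and 10.99, with GALNT3 at -4.72 among them.

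The partners of sodium channels were read from a list of 15 genes of the axon initial segment and of channel binding. Of these, 14 rose and none fell, against 39.8% higher and 36.8% lower over all genes tested. The largest rise was TNR, tenascin-R, an extracellular ligand of beta subunits, from 0 reads to 106 CPM. FGF14, which binds the alpha tail, went from 0.18 to 101 CPM. ANK3, the ankyrin that anchors sodium channels, rose by 2.22 ± 0.10 on the log2 scale and SPTBN4, its spectrin, by 5.07 ± 0.24. FGF11 was the member that did not pass, at -0.02 ± 0.25.

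The high-voltage calcium channel alpha genes rose in all 5 cases that could be tested, and their sum went from 3.90 ± 1.44 to 48.5 ± 6.82 CPM per kb (SD, n = 3). CACNA1E, the pore of the R-type channel, held 3.44, 2.03 and 0.615 CPM on day 0 and 309.7, 295 and 383 CPM on day 30, for a fitted log2 change of 7.34 ± 0.33 (adjusted p = 1.09e-08, edgeR), a description since it met the minimum of reads on day 30 alone. CACNA1B, the N-type pore of presynaptic terminals, was the highest of the family on day 0 with 38.8, 23.5 and 17.6 CPM. On day 30 it stood at 135, 123 and 163 CPM, with a log2 change of 2.39 ± 0.24 (adjusted p = 5.68e-06, edgeR). CACNA1E thus moved from 0.019 to 0.048 of the CACNA1B level per kb on day 0 to 1.24 to 1.30 times that level on day 30. Within each day 30 library CACNA1E was the higher, although their ranges over libraries overlapped. CACNA1C, the L-type pore of heart and brain, rose by 5.03 ± 0.18 to 224 CPM and CACNA1D, the L-type pore linked to pacemaking, by 4.45 ± 0.24 to 50.4 CPM. CACNA1A, the P/Q-type pore, rose least, by 2.03 ± 0.17 to 80.6 CPM. The L-type pair held 12.7% ± 2.99 of the family level per kb on day 0 and 29.2% ± 0.16 on day 30.

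The order within this family depends on the length used. Per kb of merged exon CACNA1E led on day 30 with 18.0 ± 2.59, followed by CACNA1B with 14.2 and CACNA1C with 11.7. Per kb of the longest coding transcript, a scale added after the data were seen, CACNA1C led with 29.5, followed by CACNA1E with 22.1 and CACNA1B with 14.6. The remaining high-voltage genes belong to other tissues and were nearly absent. CACNA1S, the pore of skeletal muscle, had 3 reads on day 0 and 29 on day 30, a depth-scaled ratio of 7.82 (95% counting interval 2.42 to 40.1). CACNA1F, the L-type pore of the retina, had 25 and 6 reads, giving a ratio of 0.194 (0.0651 to 0.485), and 15 of its reads were in day 0 replicate 1. Of the 7 photoreceptor markers 2 were tested and 1 rose, with sums of 3.94 to 6.76 CPM on day 0 and 5.74 to 8.68 CPM on day 30, when CRX, ARR3 and GNAT1 were at 0. Their part in the reads of CACNA1F was not tested.

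The low-voltage calcium genes differed in how far they moved. CACNA1H was the highest T-type gene on both days, at 29.7, 19.6 and 20.3 CPM on day 0 and 35.6, 35.7 and 35.3 CPM on day 30. Its log2 change of 0.61 ± 0.17 was the smallest of the calcium alpha genes (adjusted p = 0.00605, edgeR). CACNA1I held 3.19, 2.62 and 1.97 CPM on day 0 and 23.3, 20.5 and 24.2 CPM on day 30, for a log2 change of 3.12 ± 0.21 (adjusted p = 2.29e-07, edgeR). CACNA1G, linked to thalamic bursting, rose by 2.64 ± 0.29 to 14.2 CPM. With these rises the CACNA1H share of the T-type level per kb went from 85.2% ± 1.44 to 53.9% ± 3.68 (SD, n = 3). The T-type sum went from 3.17 to 7.69 CPM per kb, against 3.90 to 48.5 for the high-voltage family.

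Start regions of 4 calcium and leak channel genes are shown because genes that rose together differed in how many CG pairs they carry there, a feature of promoters that are open in many tissues. The lines give the 100 bases before the RefSeq start on GRCh38.p14, 5′ to 3′ on the gene's strand, with CG pairs in capitals. They cover chr12:2052887-2052986 (plus), chr9:137877682-137877781 (plus), chr13:101416509-101416608 (minus) and chr22:39570653-39570752 (plus), none of which overlaps a GENCODE 29 exon on that strand.
CACNA1C: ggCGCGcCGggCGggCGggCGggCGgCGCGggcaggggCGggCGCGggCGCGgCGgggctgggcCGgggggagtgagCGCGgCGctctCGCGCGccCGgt
CACNA1B: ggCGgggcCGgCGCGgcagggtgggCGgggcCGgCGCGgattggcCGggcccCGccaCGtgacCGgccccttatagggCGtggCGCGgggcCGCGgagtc
NALCN: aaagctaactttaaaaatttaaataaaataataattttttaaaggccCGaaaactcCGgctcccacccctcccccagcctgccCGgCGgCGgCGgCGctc
CACNA1I: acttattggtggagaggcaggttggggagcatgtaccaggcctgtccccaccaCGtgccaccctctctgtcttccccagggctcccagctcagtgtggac
These windows hold 23, 17, 7 and 1 CG pairs, and all 4 genes rose. Their day 0 levels were 0.356, 2.69, 0.187 and 0.240 CPM per kb, so that CACNA1C, the richest in CG pairs, was lower on day 0 than CACNA1B. RefSeq entries of 250 bases before the start were matched by symbol for 30 of the 45 genes, with 44 starts. The observed-to-expected CpG ratio, taken at the start where it was highest, ran from 0 in SCN2B and SCN10A to 1.15 in SCN8A. Across the 30 genes its rank correlation with the day 0 level per kb was 0.51, a description over genes that share libraries and whose CpG ratio also follows GC content (0.82). GC content itself correlated with the day 0 level at 0.58, and the CpG ratio with the day 30 level at 0.27. The 10 genes with a ratio under 0.6 had a median day 0 level of 0.132 CPM per kb and the other 20 one of 0.487. HCN3 was then left out, since its zeros are not read as a level, a choice made after seeing the data. Without it the CpG ratio correlated with the day 0 level at 0.57 over 29 genes, and the higher median was 0.520 over 19.

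Short motifs were searched on both strands of the 250 bases. The GC box GGGCGG, which itself holds a CG pair, was in 25 of the 44 starts (56.8%) and in 42.6% of the 35116 RefSeq starts of that length. The TATA box TATAAA was in 2 (4.55%) against 10.7%, and the E-box CAGCTG in 9 (20.5%) against 14.0%. Several starts belong to the same gene, and a match is a description of the letters. No entry was matched for CACNA1G, CACNA1H, CACNA2D4, CACNG1, CACNG2, CACNG4, CACNG5, CACNG7, CACNG8, SCN3A, SCN3B and SCN4A, among others.

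The calcium channel beta subunits, which bind the pore's first loop and bring it to the membrane, rose together. All 4 rose, by 2.93 to 3.29 on the log2 scale, the narrowest band of any family with more than 1 tested gene. CACNB1, with the highest mean per kb of merged exon on both days and the largest rise, held 7.52, 6.54 and 6.52 CPM on day 0 and 67.7, 63.9 and 70.4 CPM on day 30. Its log2 change was 3.29 ± 0.14 (adjusted p = 5.81e-09, edgeR). On day 0 its libraries overlapped with those of CACNB2 per kb, and per kb of the longest coding transcript CACNB3 was the highest on both days, with 2.03 against 1.83 on day 0 and 18.04 against 17.99 on day 30. The make-up hardly moved: CACNB1 was 34.3% ± 2.36 of the beta level per kb on day 0 and 38.2% ± 0.84 on day 30, CACNB2 32.2% ± 6.46 and 27.6% ± 0.81, and CACNB3 26.9% ± 7.01 and 27.4% ± 1.42 (SD, n = 3). CACNB4 shares 2168 exon bases on the same strand with another protein-coding entry (ENSG00000283228), and 11.6% of its 100-base windows, so its value of 61.5 CPM on day 30 is uncertain.

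The alpha2delta subunits, some of which are targets of gabapentin-type drugs, set how many channels reach the synapse. They were already the highest family on day 0, at 13.6 ± 0.94 CPM per kb in sum. CACNA2D1 held 67.2, 67.7 and 78.3 CPM on day 0 and 114, 110.0 and 120.0 CPM on day 30, for a log2 change of 0.69 ± 0.11 (adjusted p = 1.61e-04, edgeR). CACNA2D2 moved more, from 23.5, 13.5 and 15.6 CPM to 90.8, 80.1 and 101 CPM, a log2 change of 2.36 ± 0.19 (adjusted p = 9.57e-07, edgeR). It reached the level of CACNA2D1 on day 30, with 14.3 ± 1.62 against 12.7 ± 0.56 CPM per kb and overlapping libraries. Per kb of the longest coding transcript CACNA2D1 stayed ahead, with 29.7 against 17.0. CACNA2D3 rose by 0.62 ± 0.15 to 20.6 CPM, and CACNA2D4, known from the retina, had 10 reads on day 0 and 5 on day 30, giving a ratio of 0.404 whose 95% counting interval (0.108 to 1.30) includes 1.

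**Figure D4:**
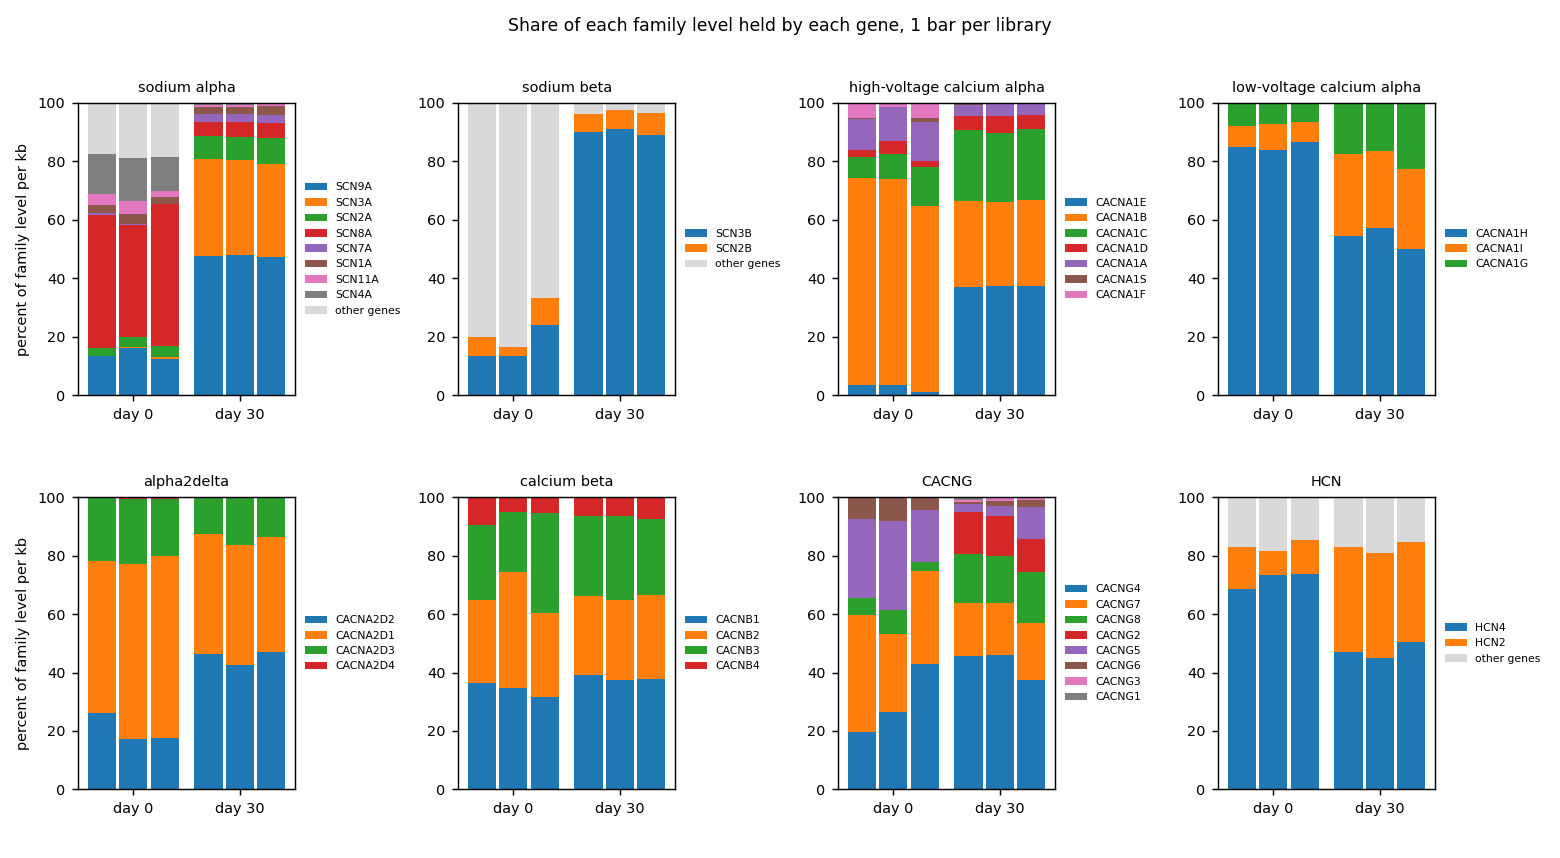
Each bar is 1 library and shows what percentage of the family's summed level, in CPM per kb of merged exon, each gene held, with some genes drawn together in light grey as other genes. Day 0 libraries are on the left of each panel and day 30 on the right. SCN8A led the sodium alpha genes on day 0 (43.9%) and SCN9A on day 30 (47.7%), SCN3B went from 16.9% to 90.0% of the sodium beta level, and the 4 calcium beta genes kept similar shares.

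Partners and regulators of calcium channels were read from a list of 18 genes. Of the 17 tested, 10 rose, 2 fell and 5 did not pass, where over all genes tested 39.8% were higher and 36.8% lower. RIMBP2, a scaffold that ties calcium channels to the active zone, had the largest rise, from 0.51 to 91.4 CPM and by 7.52 ± 0.38 on the log2 scale. RIMS1, another active zone protein, rose by 4.80 ± 0.15 and CASK, a presynaptic scaffold, by 1.27 ± 0.11. AKAP5, which brings kinase and phosphatase to L-type channels, fell by 2.25 ± 0.28 to 1.70 CPM, and STAC, an adaptor of L-type channels, fell by 1.09 ± 0.23.

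The CACNG genes split into 4 that rose and 2 that did not pass among the 6 tested. CACNG2, the TARP known as stargazin, had 0 reads in all 3 day 0 libraries and 21.4, 18.6 and 17.4 CPM on day 30. Against a floor of 3 reads over the day 0 group it was at least 147-fold higher (adjusted p = 1.72e-07, edgeR). CACNG4, a TARP of the developing brain, held 6.76, 5.23 and 10.8 CPM on day 0 and 71.4, 65.9 and 59.6 CPM on day 30. Its log2 change was 3.10 ± 0.22 (adjusted p = 3.11e-07, edgeR). It was the highest of day 30 per kb, while in CPM its mean of 65.6 was close to the 66.2 of CACNG8. CACNG7 had the highest mean per kb on day 0, where its libraries overlapped those of CACNG4. It held 11.3, 4.36 and 6.64 CPM and then 23.6, 21.1 and 25.9 CPM, a change of 1.64 ± 0.27 (adjusted p = 2.46e-04, edgeR). On chromosome 19 it lies beside CACNG8, a TARP that rose by 4.11 ± 0.23 to 66.2 CPM, and CACNG6, a relative of the muscle gamma subunit that did not pass at 0.45 ± 0.48 (adjusted p = 0.416, edgeR), with 103 kb from end to end.

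CACNG5 was the tested gene nearest to no change. It held 3.57, 2.32 and 1.72 CPM on day 0 and 1.65, 2.04 and 6.79 CPM on day 30, so that 1 library, day 30 replicate 3, stood apart and the days overlapped. In the same library PDGFRA (0.41, 0.76 and 12.1 CPM over the day 30 libraries) and CSPG4 (0.72, 2.04 and 14.3 CPM), markers of oligodendrocyte precursors, were also highest. Of the 8 oligodendroglia markers 6 were tested and 3 fell, with sums of 136 to 187 CPM on day 0 and 30.2 to 57.9 CPM on day 30, when MOG was at 0. Their part in the CACNG5 value was not tested. Its log2 change of 0.31 ± 0.53 did not pass (adjusted p = 0.606, edgeR) and was -0.43 without that library. The neighbours of CACNG5 on chromosome 17 are CACNG4, which rose, and CACNG1, the gamma subunit of skeletal muscle, which had 0 reads on day 0 and 8.5 on day 30, all in replicates 1 and 2. CACNG3, a TARP of mature forebrain, had 0 reads on day 0 and 30 on day 30, at least 8.09-fold higher against the floor of 3 reads. Of the AMPA receptor subunits and further auxiliary proteins, 8 of 9 were tested. Of these 6 rose, 1 fell and 1 did not pass, against 39.8% higher and 36.8% lower over all genes tested. GRIA2, the subunit that blocks calcium entry, had the largest rise, from 0.09 to 379.7 CPM, and SHISA9 fell by 2.01 ± 0.19 to 14.2 CPM.

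The HCN genes rose in the 3 cases tested. HCN4, the slow pacemaker channel of the sinus node and of some neurons, was the highest on both days. It held 16.7, 16.4 and 16.5 CPM on day 0 and 32.5, 31.2 and 42.7 CPM on day 30, for a log2 change of 1.09 ± 0.15 (adjusted p = 6.79e-05, edgeR). HCN2 had the largest rise, from 1.66, 0.872 and 1.23 CPM to 11.7, 11.7 and 13.8 CPM, a log2 change of 3.27 ± 0.27 (adjusted p = 1.16e-06, edgeR). Its level per kb relative to HCN4 was 0.113 to 0.210 on day 0 and 0.685 to 0.796 on day 30. HCN3 was listed at 0 in all 6 libraries. So were its chromosome 1 neighbours CLK2, SCAMP3, ENTREP3 and PKLR, chosen after their values were seen, of which CLK2 and SCAMP3 are active in most cell types, so nothing is drawn about HCN3 from these zeros.

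NALCN, the leak channel, stood at 1.53, 2.62 and 0.984 CPM on day 0 and at 117, 113 and 121 CPM on day 30. Its fitted log2 change was 6.12 ± 0.22 (adjusted p = 2.81e-09, edgeR), a description because only the day 30 libraries met the minimum of reads. Its complex partner UNC80 had the largest rise of its list, from 1.08 to 133 CPM and by 6.90 ± 0.40. NALF1, the auxiliary subunit of the leak channel, rose by 2.72 ± 0.16, whereas its relative NALF2 fell by 0.49 ± 0.17. UNC79 was too low to test, at 0.09 and 1.21 CPM. Of the 7 tested genes of the NALCN and HCN partner list 3 rose and 4 fell, and VAMP8, a vesicle protein, had the largest fall: it fell by 4.74 ± 0.37. PEX5L, which traffics HCN channels in neurons, rose by 3.11 ± 0.28.

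REST, the repressor that keeps neuronal genes such as sodium channels silent in other cells, was read beside the channels. Its level was 168, 156 and 178 CPM on day 0 and 11.5, 19.9 and 18.1 CPM on day 30, and it fell by 3.34 ± 0.19 on the log2 scale (adjusted p = 4.69e-08, edgeR). Of the 8 tested genes of the list of REST and its corepressors 7 fell and 1, RCOR3, rose by 1.26 ± 0.13. Over all genes tested 36.8% were lower and 39.8% higher. EHMT2 was listed at 0 in all libraries, and nothing is drawn about it from these zeros. The part of REST in the channel values was not tested.

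Gene length moved with the outcome across the genome and is given for the channels, many of which are very long. Among protein-coding genes tested outside the set, the 3178 that span over 100 kb had a median log2 change of 0.47 and 52.1% were higher on day 30, against -0.16 and 33.9% for the 10925 shorter ones. The 21 channel genes over 100 kb had a median of 3.12 and the 16 shorter ones a median of 2.87. Of the longer channel genes 95.2% were higher and of the shorter ones 81.2%, the latter with SCN4A lower and CACNG5 and CACNG6 not passing. The part of gene length in the channel values was not tested.

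Of the 45 channel genes 20 share exon bases with another annotated gene, which in CACNB4, CACNG8 and SCN2A lies on the same strand. The shared part was at most 13.5% of a gene's exon bases. CACNA1D shares 1399 exon bases with CHDH on the opposite strand, and CHDH went from 420 to 28 reads while CACNA1D went from 52 to 1399.5. SCN9A and SCN1A overlap SCN1A-AS1, which held 7 reads on day 0 and 10 on day 30, and SCN3A overlaps the antisense entry ENSG00000236283, with 2 and 14 reads. The library kit marks strand, and whether the counting used it remains not given in the sources used here.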

How the data were processed

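RNA was measured in 3 day 0 and 3 day 30 libraries. The deposited table holds expected counts per gene for each library, made by the authors. They are not all whole numbers: 20 of the 270 values of the channel genes carry fractions, and values were rounded to whole numbers before testing. Per the submitters' processing notes FastQC 0.11.9 and the build hg38 were used. The aligner, the counter, its strand setting and the annotation remain not given in the sources used here. Testing had been planned for counts, and expected counts were tested the same way. Symbols came from a separate list of gene names, and from GENCODE 29 where that list had none. Types, positions and exon lengths came from GENCODE 29, which held 58298 of the 61853 entries.

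Genes were kept by filterByExpr (minimum count 10), scaled by TMM factors and tested with edgeR 4.0.16 (quasi-likelihood, no covariate, Benjamini-Hochberg over 18040 genes, threshold 0.05) in R 4.3.3. The test was checked on simulated data. Counting intervals are exact and cover counting error only. DESeq2 1.42.0, limma 3.58.1 (voom), other scaling and filters, a replicate block, unrounded values and leaving out each library were alternatives. The channel genes, families and gene lists were chosen with earlier results of these data known. Of each family the genes with the largest passing rise and fall, the highest level per kb on each day and the one nearest 0 that did not pass were given by library, and others by range or change. Of each partner list the largest rise and fall were named, with further members named as examples after their values were seen. Results for some genes and sequences are not reported here.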

Additional observations from a re-analysis of the deposited data

How the results depend on the processing

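Under the 14 alternatives the count of channel genes higher on day 30 stayed between 32 and 36 (33 as reported). The count of lower genes was 2 as reported and 4 with no filter on low counts, which added SCN4B and CACNA1F. Leaving out 1 library at a time gave 1 to 3 lower genes and 32 to 35 higher ones, with 1 lower gene without day 0 replicate 1. Keeping genes at 1 CPM in 3 libraries, a filter meant as stricter, kept more genes (18758), and SCN4B then passed as lower (-2.18, adjusted p = 0.0164, edgeR, and 4.39e-04 to 0.0469 over the 6 settings that tested it). The 1 reversal was CACNG5, which did not pass in any setting, at -0.43 without day 30 replicate 3 and up to 0.65 without day 30 replicate 1. Among the 37 genes 2 calls were lost when 1 library was left out, and no other call was lost. Scaling by total counts alone moved the median of all genes by 0.09. Deviations of same-numbered libraries correlated at 0.07, -0.0040 and -0.05, and those of differently numbered ones at -0.13 to 0.14. Correlations this near 0 cannot show whether the numbers pair the libraries, and the labels do not say. With a replicate block 33 channel genes were higher and 2 lower, and 6921 and 6415 of all genes, against 7186 and 6641. Low counts kept 8 genes out of the main test, each with at most 54 reads in all. Other settings tested some of them and called SCN4B and CACNA1F lower and CACNA1S, CACNG1 and CACNG3 higher. The zeros of HCN3 are not read as a limit of depth.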
